A study of Mus musculus with 19 samples.

Results

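Immediate early genes were followed per library in kidney and liver of mice lacking the macroH2A1.1 isoform and of wild-type mice. The 10 genes, Fos, Fosb, Jun, Junb, Egr1, Atf3, Ier2, Nr4a1, Dusp1 and Btg2, were taken by symbol as rapidly induced transcription factor and feedback genes. All 10 were found, each once, among the 26506 genes of the deposited count table. Immediate early genes are transcribed within minutes of a stimulus, from factors already present in the cell (such as serum response factor with its Elk partners, or CREB), without new protein synthesis. Their messages decay quickly, and in whole organs they are known to respond to growth factors, hormones, feeding, injury and the handling of tissue. Fos and Jun proteins pair to form the transcription factor AP-1, while Dusp1 and Btg2 belong to the arm that dampens the response.

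The libraries came from poly(A) RNA of whole, homogenized organs of male mice, backcrossed to C57BL/6J for at least 10 generations. There were 5 knockout (KO) livers, 4 wild-type (WT) livers, 5 KO kidneys and 5 WT kidneys. KO mice were homozygous for a deletion of the alternative exon 6b of H2afy, the gene for macroH2A1. It was made by exposing zygotes with the floxed exon to soluble Cre enzyme, so it is present in every cell of the KO mice. WT and KO mice were bred from heterozygous parents. MacroH2A1.1 is a splice form of a histone variant whose macrodomain binds ADP-ribose. Age, the hour of tissue collection and which mice received the ketogenic instead of the standard diet are not given in the sources used here. Libraries are named by the number in their titles, read as a mouse number. The labels do not state that the libraries of a group are separate mice, and p-values reflect only the spread among them. In whole tissue, a change in the cells that express a gene and a change in message per cell cannot be told apart.

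Liver libraries held 26084473 to 34806035 counts and kidney libraries 25919138 to 35131720 counts. One mouse labelled wild-type lay nearer to the knockouts than to its own group. H2afy, read over the whole gene, stood at 49.0 to 61.1 CPM (counts scaled to a common library size, with TMM factors computed within a tissue) in KO kidneys and at 82.4 to 90.8 CPM in WT kidneys other than mouse 24, whose kidney held 65.6 CPM. In liver it stood at 42.9 to 52.9 CPM in KO livers and at 74.6 to 86.4 CPM in WT livers other than mouse 24, whose liver held 53.5 CPM. A count over the whole gene cannot show whether the deleted exon is present. Both libraries of this mouse are called the libraries labelled wild-type 24, and the main comparisons are given with and without them. Markers fitted the organs, the summed level of hepatocyte markers being 87930 to 114800 CPM in livers, against 1087 to 1414 CPM in kidneys.

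The promoters shown are those of the 5 matched genes that stood at least 5-fold above the median of the other kidneys in the kidney labelled wild-type 24, the pattern on which the results turn. They are the 250 bases before the start of the gene, 5′ to 3′ on the gene's strand, from RefSeq's table on GRCm38.p6. In all, 8 of the 10 genes were matched to that table, all but Egr1 and Ier2. Capitals mark TGACG on either strand (written CGTCA on the other strand), the short form of the cyclic AMP response element bound by CREB, and TGACGTCA, its full palindrome, which contains it.
Jun (chr4:95052223-95052472, minus strand): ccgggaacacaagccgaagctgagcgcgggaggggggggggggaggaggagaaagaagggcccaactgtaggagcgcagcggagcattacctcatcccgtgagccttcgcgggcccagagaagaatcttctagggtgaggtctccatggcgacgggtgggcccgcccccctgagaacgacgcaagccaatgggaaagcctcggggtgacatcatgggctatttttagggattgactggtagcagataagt
Fosb (chr7:19310046-19310295, minus strand): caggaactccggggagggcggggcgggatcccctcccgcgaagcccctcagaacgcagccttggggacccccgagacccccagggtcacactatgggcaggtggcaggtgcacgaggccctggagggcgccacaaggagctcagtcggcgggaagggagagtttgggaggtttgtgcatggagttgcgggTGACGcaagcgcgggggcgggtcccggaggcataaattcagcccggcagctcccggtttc
Fos (chr12:85473640-85473889, plus strand): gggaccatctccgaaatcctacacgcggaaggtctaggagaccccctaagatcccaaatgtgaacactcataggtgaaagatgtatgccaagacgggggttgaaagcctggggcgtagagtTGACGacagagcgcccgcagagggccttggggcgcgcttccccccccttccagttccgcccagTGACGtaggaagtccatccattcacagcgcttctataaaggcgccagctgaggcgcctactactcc
Nr4a1 (chr15:101266596-101266845, plus strand): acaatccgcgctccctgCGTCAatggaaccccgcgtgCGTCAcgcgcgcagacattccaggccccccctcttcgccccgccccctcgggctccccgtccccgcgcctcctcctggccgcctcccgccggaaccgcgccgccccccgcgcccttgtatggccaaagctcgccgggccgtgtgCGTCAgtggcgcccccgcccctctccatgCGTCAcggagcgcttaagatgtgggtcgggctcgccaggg
Dusp1 (chr17:26508473-26508722, minus strand): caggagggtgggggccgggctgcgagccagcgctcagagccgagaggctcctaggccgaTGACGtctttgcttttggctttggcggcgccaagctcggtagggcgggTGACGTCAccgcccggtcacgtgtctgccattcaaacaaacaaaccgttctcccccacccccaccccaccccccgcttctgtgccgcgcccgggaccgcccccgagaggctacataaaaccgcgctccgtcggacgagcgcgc

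On either strand, TGACG was found in the windows of 7 of the 8 matched genes (Fos, Fosb, Junb, Atf3, Nr4a1, Dusp1 and Btg2) and in 17.7% of 32817 windows of the same length. The full TGACGTCA was found in Dusp1 and Btg2 and in 1.55% of windows. The motif of the Egr proteins, GCGNGGGCG, was found in Fosb, Nr4a1 and Btg2 and in 4.7% of windows. The AP-1 motif TGANTCA, present in 6.75% of windows, and the CArG box of serum response factor, present in 1.47%, had no match in any of the 8. These are matches of letters in a short window, not sites at which a factor was measured.

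Across mice, the main pattern was that 1 kidney held far more of all 10 messages than any other. Fos, the AP-1 subunit that dimerizes with Jun, was at 1.08, 5.865, 1.54, 1.68 and 1.39 CPM in KO kidneys 13, 14, 15, 16 and 18. It was at 2.10, 1.39, 1.83, 2.78 and 43.4 CPM in WT kidneys 19, 20, 22, 23 and 24. The kidney labelled wild-type 24 thus stood 25.8-fold above the median of the other 9 kidneys, and KO kidney 14 was the next highest, while the remaining 8 lay between 1.08 and 2.78 CPM. Its relative Fosb, counted at only 4 to 34 reads in the other kidneys, reached 0.317, 0.358, 0.146, 0.391 and 1.03 CPM in the KO kidneys and 0.532, 0.370, 0.774, 0.296 and 8.85 CPM in the WT kidneys, in the same order of mice. Again the last of these stood apart, 23.95-fold above the median of the others, and here KO kidney 18 was the next highest.

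Egr1, a zinc finger factor induced through serum response factor, was at 8.58, 28.25, 10.7, 13.1 and 9.09 CPM in KO kidneys and at 14.8, 11.1, 13.96, 15.7 and 178 CPM in WT kidneys, a ratio of 13.6 for the kidney labelled wild-type 24. Nr4a1, an orphan nuclear receptor, was at 4.24, 19.35, 6.07, 5.90 and 6.67 CPM in KO kidneys and at 4.01, 3.07, 5.03, 6.07 and 61.2 CPM in WT kidneys, a ratio of 10.4. For both genes KO kidney 14 ranked second, above every WT kidney other than 24. Jun, the DNA-binding partner of Fos, was at 29.2, 45.1, 33.0, 41.5 and 45.1 CPM in KO kidneys and at 28.1, 24.1, 29.0, 31.0 and 178 CPM in WT kidneys. Dusp1, the phosphatase that switches off p38 and JNK kinases and is also induced by glucocorticoids, was at 64.3, 56.1, 32.0, 64.1 and 63.6 CPM in KO kidneys and at 31.1, 32.9, 34.8, 39.9 and 203 CPM in WT kidneys. Both were again highest in the kidney labelled wild-type 24, by 5.73-fold and 5.09-fold, and 4 of 5 KO kidneys held more Dusp1 than any of the other 4 WT kidneys.

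The remaining 4 genes stood higher in that kidney by smaller ratios. The AP-1 subunit Junb was at 17.6 to 33.1 CPM in KO kidneys, at 22.3 to 27.7 CPM in WT kidneys 19 to 23 and at 68.9 CPM in the kidney labelled wild-type 24. Atf3, a stress-induced repressor of the ATF family, was at 1.74 to 4.05 CPM, 1.05 to 2.29 CPM and 6.76 CPM in the same 3 sets. Ier2, a small nuclear protein of the early growth response, was at 11.8 to 19.1 CPM, 14.6 to 18.3 CPM and 40.9 CPM. The antiproliferative cofactor Btg2 was at 21.8 to 32.2 CPM, 18.2 to 22.8 CPM and 57.7 CPM. Their ratios over the median of the other kidneys were 2.62 for Junb, 3.04 for Atf3, 2.44 for Ier2 and 2.57 for Btg2.

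**Figure D1:**
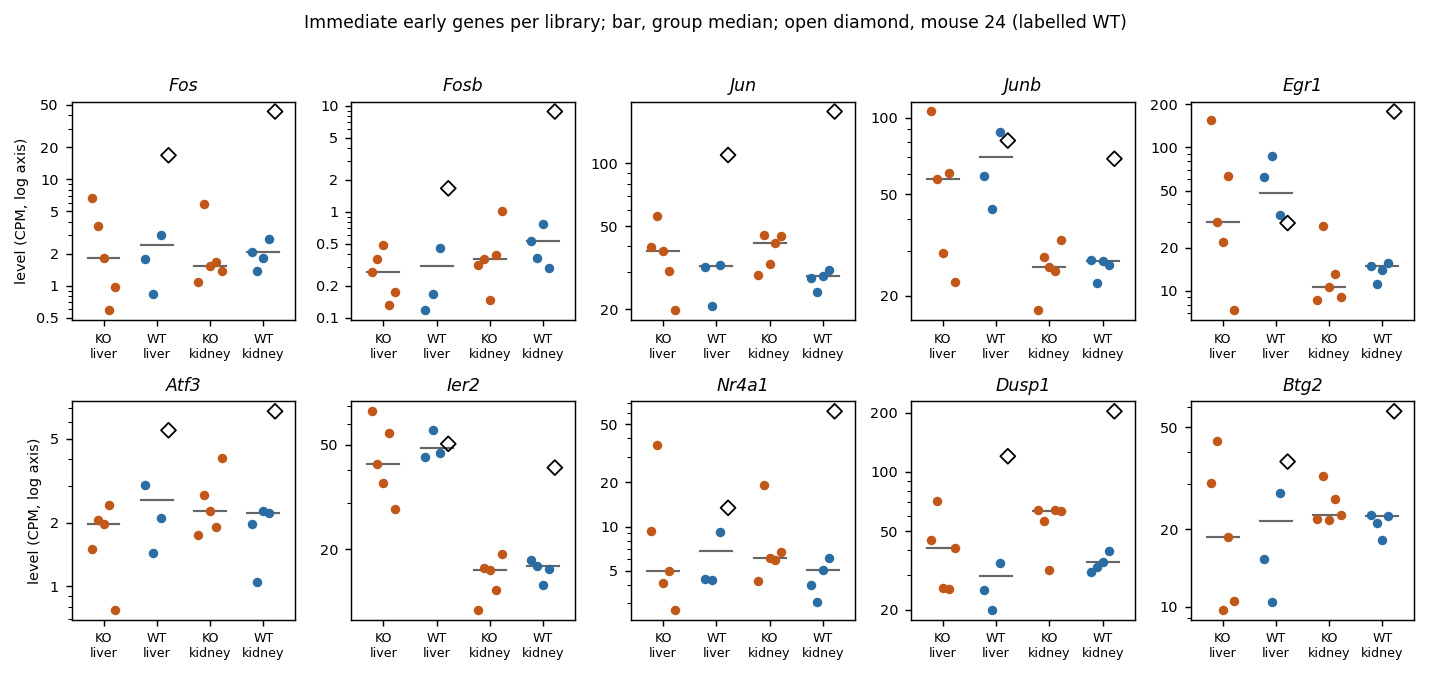
Level of each immediate early gene in CPM on a log axis, scaled by TMM within each tissue, in KO livers, WT livers, KO kidneys and WT kidneys; points are libraries, bars are group medians and open diamonds are the libraries labelled wild-type 24. In every panel the diamond of the kidney is the highest kidney value, while in liver it is the highest for Fos, Fosb, Jun, Atf3 and Dusp1 only.

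The kidney labelled wild-type 24 held the highest kidney level of 10 of 10 genes, against 7.93% of the 17269 genes tested in kidney. All 10 were at least 2-fold above the median of the other kidneys, against 0.886% of genes. Among the other 9 kidneys, 0 to 3 of the genes passed that ratio, the 3 being Fos, Egr1 and Nr4a1 in KO kidney 14. Since the 10 genes respond to shared stimuli and this library was already known to stand apart, these shares describe 1 library and are not a test. In liver the same mouse stood out less and for fewer genes. The liver labelled wild-type 24 was the highest for Fos, Fosb, Jun, Atf3 and Dusp1, 5 of 10 genes against 14.5% of the 14591 genes tested in liver, and it passed the 2-fold ratio for 7 of 10 genes against 2.35%.

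**Figure D2:**
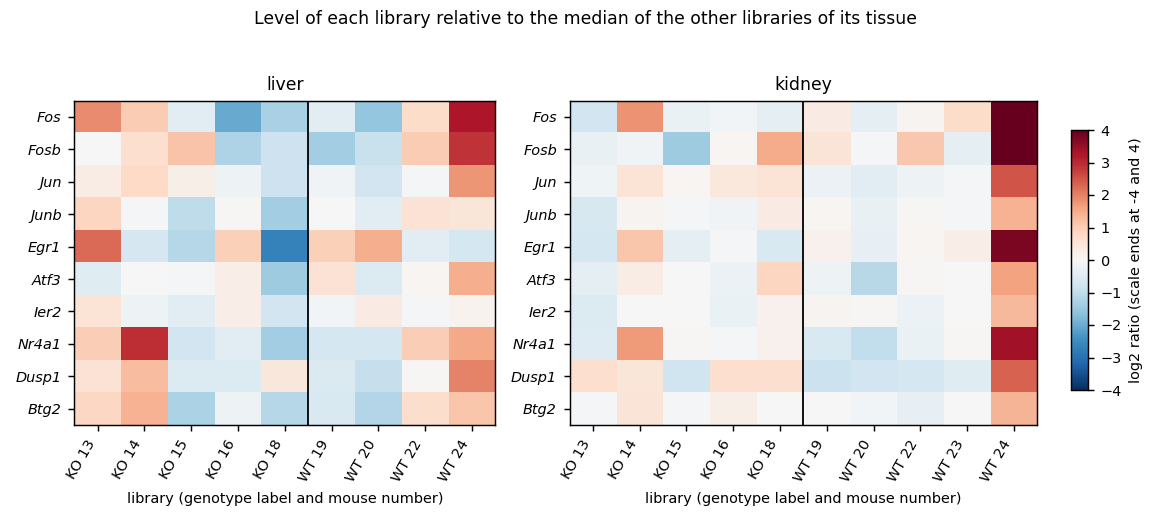
Log2 ratio of each library to the median of the other libraries of its tissue, for the 10 genes (rows) and the libraries of KO and WT mice (columns, divided by a line), with liver on the left and kidney on the right. In kidney the column of mouse 24 is red for all 10 genes, with ratios of 2.44 to 25.8, whereas in liver Egr1 of the same mouse is below the median, at a ratio of 0.614.

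In liver, Fos was at 6.73, 3.68, 1.81, 0.593 and 0.984 CPM in KO livers 13, 14, 15, 16 and 18, and at 1.80, 0.836, 3.03 and 16.8 CPM in WT livers 19, 20, 22 and 24. Dusp1 was at 45.1, 71.6, 25.9, 25.6 and 41.0 CPM in KO livers and at 25.1, 20.0, 34.3 and 120 CPM in WT livers. Each was highest in the liver labelled wild-type 24. The other 3 WT livers lay within the KO range for Fos, and WT livers 19 and 20 lay just below it for Dusp1. Jun was at 39.8, 56.2, 38.0, 30.7 and 19.8 CPM in KO livers and at 31.7, 20.8, 32.7 and 110 CPM in WT livers. The liver labelled wild-type 24 exceeded the median of the other livers by 9.33-fold for Fos, 7.48-fold for Fosb, 3.99-fold for Dusp1, 3.41-fold for Jun and 2.72-fold for Atf3.

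Egr1 followed a different order in liver. Its level was 156, 30.1, 21.9, 62.7 and 7.35 CPM in KO livers and 62.6, 86.9, 34.04 and 29.7 CPM in WT livers. KO liver 13 was thus the highest and KO liver 18 the lowest, and the liver labelled wild-type 24 ranked seventh of 9. Leaving it out, Egr1 spanned 21.2-fold between livers, the widest span of the 10 genes there, against 2.35-fold for Ier2, the narrowest. Nr4a1 was at 9.30, 36.2, 4.13, 4.94 and 2.71 CPM in KO livers and at 4.40, 4.31, 9.23 and 13.4 CPM in WT livers, so that KO liver 14 was the highest, as KO kidney 14 was among kidneys other than 24. Junb, at 22.6 to 106 CPM in KO livers and 43.7 to 88.1 CPM in WT livers, and Ier2, at 28.5 to 67.0 CPM in KO livers and 44.8 to 56.8 CPM in WT livers, were highest in KO liver 13. Btg2 was highest in KO liver 14, at 9.72 to 44.2 CPM in KO livers and 10.4 to 36.8 CPM in WT livers.

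The comparison of KO with WT asks whether loss of macroH2A1.1 moved these genes. In kidney, 0 of 10 passed the test (edgeR quasi-likelihood, Benjamini-Hochberg adjusted p under 0.05 over 17269 genes, lowest adjusted p = 0.9995), and 0 of 10 had an unadjusted p under 0.05. DESeq2 and limma voom with sample weights also called 0 of 10, against 0.0869% and 0.0232% of all genes. However, DESeq2 gave no adjusted p for Fos, Fosb, Jun, Egr1, Nr4a1 and Dusp1, so it could not call these genes. Over all genes edgeR called 1, which is 0.00579%, and 2.95% had an unadjusted p under 0.05. All 10 fold changes lay below 0, with a median log2 fold change of -0.51, against 0.01 over all genes tested. Egr1 averaged 13.9 ± 8.19 CPM in KO kidneys and 46.7 ± 73.4 CPM in WT kidneys (SD, n = 5 each), a log2 fold change of -1.74 with a standard error of 0.93. The values were -2.15 with a standard error of 1.17 for Fos, -2.21 with 1.09 for Fosb and -0.90 with 0.96 for Nr4a1. For the other 6 genes they lay between -0.58 for Jun and -0.15 for Atf3.

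The direction of these values rested on the kidney labelled wild-type 24. Without it, Egr1 averaged 13.9 ± 8.19 CPM in KO kidneys (n = 5) and 13.9 ± 1.96 CPM in WT kidneys (SD, n = 4), and its log2 fold change was 0.00. The log2 fold change then stood at 0.18 for Fos, -0.10 for Fosb, 0.00 for Junb, -0.09 for Ier2, 0.24 for Btg2, 0.44 for Atf3 and 0.89 for Nr4a1. The median over the 10 genes was 0.21, with 8 above 0 and 2 below, and the median standard error was 0.23 without this kidney against 0.61 with it. With edgeR 0 of 10 passed the test, against 0.0395% of genes called in either direction.

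Dusp1 and Jun were the 2 genes with an unadjusted p under 0.05 once that kidney was left out, against 3.36% of all genes. Dusp1 averaged 56.0 ± 13.9 CPM in KO kidneys (n = 5) and 34.7 ± 3.82 CPM in the 4 WT kidneys (SD). Its log2 fold change was 0.69 with a standard error of 0.17 (edgeR, unadjusted p = 0.00139, adjusted p = 0.63). KO kidney 15, at 32.0 CPM, lay within the WT range, so the groups overlapped. Jun averaged 38.8 ± 7.30 CPM in KO kidneys and 28.0 ± 2.91 CPM in the 4 WT kidneys. Its log2 fold change was 0.47 with a standard error of 0.14 (edgeR, unadjusted p = 0.0036, adjusted p = 0.9999), and KO kidney 13 lay within the WT range. In neither tissue did the KO and WT groups of any of the 10 genes separate without overlap, with or without mouse 24. In kidney 0.272% of genes lay lower and 0.29% higher in every KO library with all libraries used, and 0.735% and 0.764% did so without mouse 24.

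**Figure D3:**
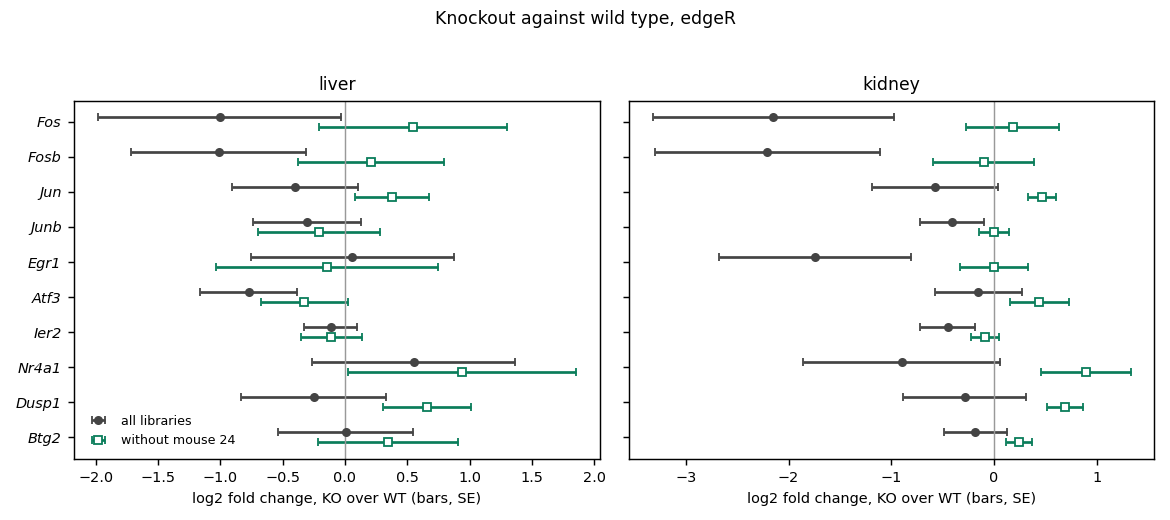
Log2 fold change of KO over WT (edgeR, bars are standard errors) for the 10 genes, in liver on the left and kidney on the right, with all libraries (filled circles) and without mouse 24 (open squares). In kidney Fos is at -2.15 with all libraries and at 0.18 without mouse 24, and Dusp1 is at -0.28 and 0.69; none of the values passed the adjusted threshold.

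In liver, 0 of 10 genes passed the test (edgeR quasi-likelihood, adjusted p = 0.9998 for each), 0 of 10 had an unadjusted p under 0.05, and DESeq2 and limma voom called 0 of 10, against 0.288% and 0.0343% of all genes. Over 14591 genes 0% were called, and 4.17% had an unadjusted p under 0.05. With all livers 7 fold changes lay below 0 and 3 above, with a median log2 value of -0.28, against 0.00 over all genes. Atf3 had the smallest unadjusted p in edgeR, 0.0702. It averaged 1.75 ± 0.641 CPM in KO livers (SD, n = 5) and 3.02 ± 1.77 CPM in WT livers (SD, n = 4), a log2 fold change of -0.77 with a standard error of 0.39. Without the liver labelled wild-type 24, Atf3 stood at -0.32, and the median over the 10 genes was 0.28 with 6 above 0 and 4 below. Nr4a1 then stood at 0.94 with a standard error of 0.91, Dusp1 at 0.66 with 0.35, Fos at 0.55 with 0.75, and Jun at 0.38 with 0.30. With all livers Nr4a1 stood at 0.55, and leaving out KO liver 14 alone it was -0.57, so that its direction rested on this liver. Without the liver labelled wild-type 24, none of the 10 genes passed the test, against 0.0336% of all genes. In liver 0.761% of genes lay lower and 0.795% higher in every KO library, and 1.89% and 1.86% did so without mouse 24.

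Whether the KO effect differed between tissues was tested as an interaction over all 19 libraries. With edgeR 0 of 10 genes passed, 0 of 10 had an unadjusted p under 0.05, while 0% of 18549 genes were called and 4.12% had an unadjusted p under 0.05. The largest differences, KO effect in liver minus KO effect in kidney, were 1.79 with a standard error of 1.27 for Egr1, 1.46 with 1.32 for Nr4a1, 1.23 with 1.40 for Fosb and 1.16 with 1.57 for Fos on the log2 scale. Without mouse 24 they were -0.15 for Egr1, 0.04 for Nr4a1, 0.33 for Fosb and 0.36 for Fos. With all libraries 9 of the 10 differences lay above 0, with a median of 0.27, and without mouse 24 there were 4 above 0 and 6 below, with a median of -0.03.

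Of the 10 genes, 4 were called higher in liver than in kidney, near the share of all genes called higher, 35.5%. In a fit of all libraries, with levels scaled by TMM across both tissues, Ier2 ranged from 39.8 through a median of 64.2 to 92.6 CPM in 9 livers and from 8.64 through 12.6 to 30.4 CPM in 10 kidneys. Its log2 fold change, liver over kidney, was 2.28 with a standard error of 0.19 (edgeR adjusted p = 1.32e-09). Ier2 was the single gene of the 10 whose tissues did not overlap. The share of all genes without overlap between tissues was not computed, so this count cannot be set against it. Junb ranged from 31.5 through 83.1 to 146 CPM in livers and from 12.9 through 20.1 to 51.2 CPM in kidneys, a log2 fold change of 1.94 with a standard error of 0.29 (edgeR adjusted p = 7.92e-06). It overlapped only through the kidney labelled wild-type 24.

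Egr1 ranged from 10.2 through 47.1 to 215 CPM in livers and from 6.31 through 10.1 to 132 CPM in kidneys, a log2 fold change of 2.00 with a standard error of 0.64 (edgeR adjusted p = 0.00925). Atf3 passed by a small margin, at 0.68 with a standard error of 0.31 (edgeR adjusted p = 0.0499), and it did not pass when any 1 of mice 13, 14, 15, 16, 19, 22 and 23 was left out (log2 fold changes of 0.56 to 0.71, adjusted p up to 0.131). The other 6 genes, with log2 fold changes of -0.36 for Fosb to 0.74 for Jun, did not pass in this fit, which had no block for mouse number. With that block, Jun and Dusp1 passed as well by edgeR. In the fit without the block, 4 of 10 were called higher in liver and 0 lower, while over 18549 genes 35.5% were called higher and 45.5% lower. The count called higher is thus near the share of all genes. Without mouse 24, 8 of 10 were called higher, all but Fos and Fosb, against 34.4% of genes.

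The scaling between tissues set part of this. The median gene had a log2 fold change of -0.17 with TMM and of -1.07 with library totals. Relative to the median gene, Ier2 stood 2.45 higher in liver under both scalings, Junb 2.11 higher under both, and Egr1 2.17 and 2.18 higher with TMM and library totals. On library totals 2 of 10 passed, Ier2 and Junb, both higher in liver. On that scaling 2662 of 18549 genes were called higher and 13836 lower, so 2 of 10 is near the share called higher. The log2 fold changes of Fos, Fosb, Jun, Atf3, Nr4a1, Dusp1 and Btg2 then lay below 0.

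Within a group, levels per kilobase of exon followed a similar order. In KO livers the median level was 27.8 CPM per kilobase for Ier2, 25.03 for Junb, 12.4 for Dusp1, 11.9 for Jun, 6.79 for Btg2, 6.71 for Egr1, 1.41 for Nr4a1, 0.919 for Atf3, 0.768 for Fos and 0.0431 for Fosb. WT livers had the same 2 genes on top and the same 4 at the bottom. In KO kidneys Dusp1 led at 19.2 CPM per kilobase, followed by Jun at 13.01, Junb at 11.3, Ier2 at 10.98 and Btg2 at 8.31. In WT kidneys Junb led at 11.9, followed by Ier2 at 11.3, Dusp1 at 10.5 and Jun at 9.08. The order held 9 pairs of neighbours per group. Ranges overlapped for 8 pairs in KO livers, 8 in WT livers, 7 in KO kidneys and 9 in WT kidneys. These ranges run across libraries, while all genes were measured in the same libraries. Overlap therefore does not show that neighbours cannot be ordered within a library, and that order was not tested. The gap between ranges that held in 3 of the 4 groups was the one above Fosb, the lowest of the 10 by median in each group. Within every library, WT kidneys included, Fos stood above Fosb in CPM and per kilobase of exon.

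Whether the genes moved together from mouse to mouse was examined with the group means removed, on log2 CPM, against Fos, in 9 relations per tissue. In the 10 kidneys Egr1 followed Fos with a Pearson r of 0.994 and a Spearman rho of 0.964 (exact two-sided permutation within genotype, p = 6.94e-05, adjusted p = 0.000625 for each). Leaving out the 2 kidneys farthest from the median of Fos, 14 and 24, r was 0.867 (exact permutation p = 0.00868), and without 24 alone it was 0.977 (exact permutation, adjusted p = 0.00313). Nr4a1 followed Fos with an r of 0.992 and a rho of 0.879 (exact permutation, adjusted p = 0.00406 and 0.0246), and r was 0.838 and rho 0.619 without kidneys 14 and 24 (exact permutation p of r = 0.0382, not adjusted over the 9 relations). Without 24 alone, r of Nr4a1 passed and rho did not (exact permutation, adjusted p = 0.0203 and 0.0609).

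Jun had an r of 0.937 and a rho of 0.915 with Fos (exact permutation, adjusted p = 0.0075 and 0.0244), which was 0.659 without kidneys 14 and 24 (exact permutation p = 0.0608). Btg2 had an r of 0.970 and a rho of 0.806 (exact permutation, adjusted p = 0.0141 and 0.0669), which was 0.490 without those kidneys (exact permutation p = 0.285). Neither relation passed without kidney 24 (exact permutation, adjusted p = 0.235 for Jun and 0.0938 for Btg2). In all, 4 of 9 relations passed in kidney, 2 without kidney 24, 6 without KO kidney 14 and 7 without KO kidney 18. For Fosb, Junb, Atf3, Ier2 and Dusp1 the adjusted p did not pass with all kidneys, and r without kidneys 14 and 24 lay between -0.15 for Fosb and 0.51 for Junb and Atf3.

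In the 9 livers 0 of 9 relations passed for r. Jun and Dusp1 had the highest r with Fos, 0.862 and 0.852 (exact permutation, adjusted p = 0.0578 for each), and a rho of 0.850 and 0.883 (exact permutation, adjusted p = 0.0375 for each). They were 0.808 and 0.773 without livers 13 and 24 (exact permutation p = 0.0625 and 0.0764). Without KO liver 13 alone 4 of 9 relations passed, with r of 0.930 for Jun and 0.917 for Dusp1 (exact permutation, adjusted p = 0.0352 for each). Egr1, which tracked Fos in kidney, had an r of 0.06 and a rho of -0.18 in liver (exact permutation, adjusted p = 0.876 and 0.730). The difference in r between tissues was not tested.

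**Figure D4:**
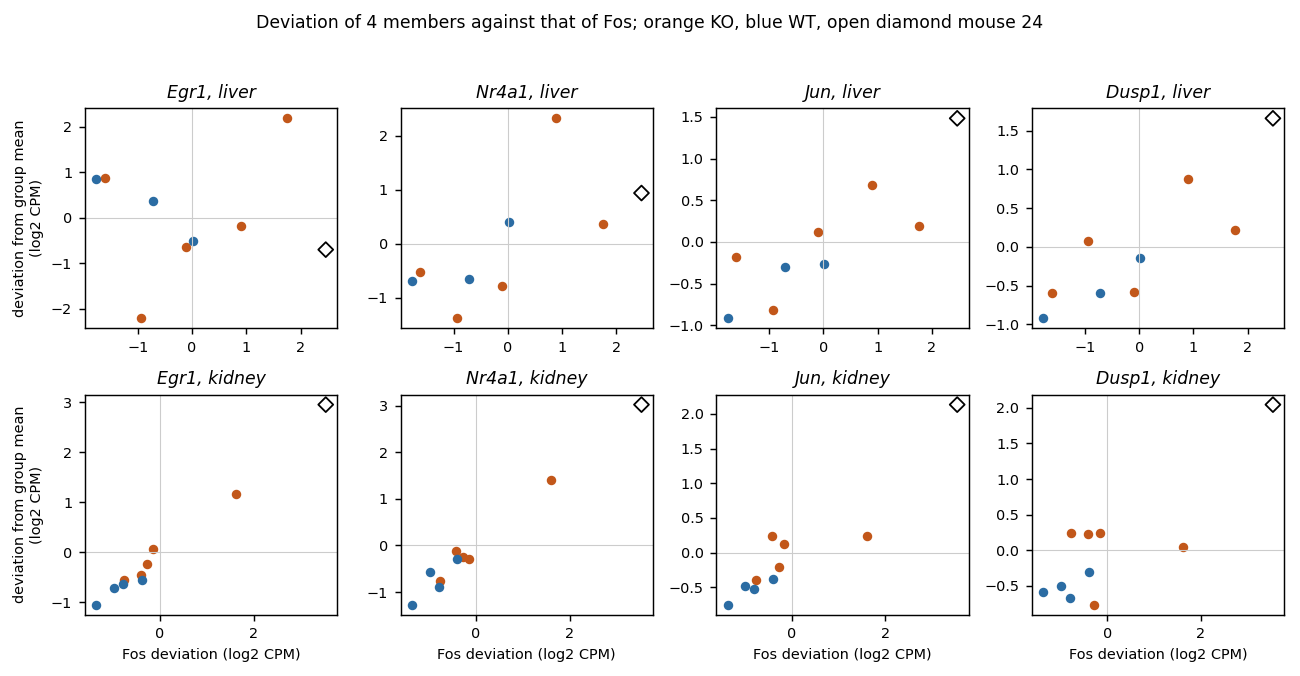
Deviation of Egr1, Nr4a1, Jun and Dusp1 from the mean of the library's group (vertical axis, log2 CPM) against that of Fos (horizontal axis, log2 CPM), in liver (top) and kidney (bottom); points are KO (orange) and WT (blue) libraries, and open diamonds the libraries labelled wild-type 24. In kidney Egr1 and Nr4a1 follow Fos with r of 0.994 and 0.992, while in liver Egr1 has an r of 0.06.

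Between organs, with equal numbers read as 1 mouse, which the labels do not state, 9 mice had both, and 0 of 10 genes had a relation that passed (exact permutation within genotype, adjusted over 10). Dusp1 had the highest, with an r of 0.841 and a rho of 0.583 (exact permutation, p = 0.0844, adjusted p = 0.258), which was -0.44 without mice 15 and 24. Fos had an r of 0.684 and a rho of 0.467 (exact permutation, p = 0.0979, adjusted p = 0.258), which was -0.38 without mice 14 and 24. Without mouse 24 alone, r was 0.38 for Dusp1 and 0.20 for Fos. The r of Dusp1 and Fos across organs rested on the mouse labelled wild-type 24. Nr4a1 had the smallest p of the 10, with an r of 0.618 and a rho of 0.333 (exact permutation, p = 0.0340, adjusted p = 0.258). Its r was 0.744 without mouse 24 and -0.21 without mice 14 and 24. With all 9 mice r lay below 0 for Ier2 at -0.37, Egr1 at -0.24 and Junb at -0.15, and above 0 for the other genes. Without mouse 24 the smallest p belonged to Ier2, with an r of -0.84 (exact permutation, p = 0.0306, adjusted p = 0.306).

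Other immediate early genes, from a list of 30 that excludes the 10, showed a weaker form of the pattern. Of the 27 tested in kidney, 14 were highest in the kidney labelled wild-type 24, against the 7.93% given above, and 9 were at least 2-fold above the median of the other kidneys, against 0.886%. Egr3, of the Egr1 family, reached 2.24 CPM there against 0.141 to 0.876 CPM in the other kidneys, a ratio of 5.70. Ccn1, a secreted matrix protein, reached 196.5 CPM against 21.5 to 54.2 CPM, a ratio of 5.58. Both were chosen after their values were seen, as the highest ratios of the list. In liver 7 of 23 were highest in the liver labelled wild-type 24, against 14.5% of genes, and 4 passed the 2-fold ratio, against 2.35%.

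For KO against WT, 0 of 27 passed in kidney and 0 of 23 in liver by edgeR. In kidney 8 lay higher and 19 lower with a median log2 fold change of -0.09, and without mouse 24 the split was 15 and 12 with a median of 0.05. The 3 with the smallest p in kidney were Ccn2, a matrix-associated growth factor, at a log2 fold change of 0.44, Rhob, a small GTPase, at 0.31 and Npas4, an activity-dependent transcription factor, at 0.88 (edgeR adjusted p = 0.9995 for each). Npas4 was low, with means of 0.660 CPM in KO kidneys and 0.359 CPM in WT kidneys. In liver 10 lay higher and 13 lower with a median of -0.05, and without mouse 24 the split was 14 and 9 with a median of 0.11. There the smallest p belonged to Ccn2 at 1.21, Ier5 at -0.38 and Plk2, a kinase, at -0.34 (edgeR adjusted p = 0.9613, 0.9789 and 0.9998). Ccn2 averaged 9.35 ± 3.89 CPM in KO livers (SD, n = 5) and 4.07 ± 2.26 CPM in WT livers (SD, n = 4).

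**Figure D5:**
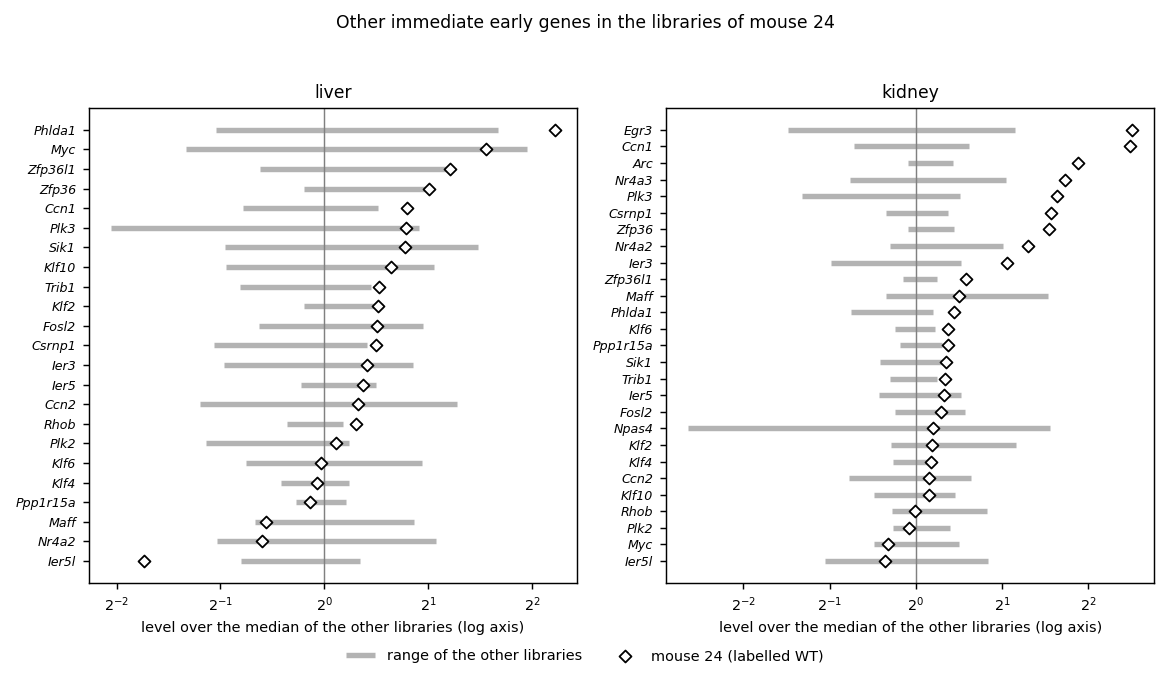
Level of other immediate early genes in the libraries labelled wild-type 24, as a ratio to the median of the other libraries of the tissue (open diamonds, log2-spaced axis), with the range of the other libraries as grey bars; liver on the left, kidney on the right. In kidney the diamonds of Egr3 and Ccn1 lie at 5.70 and 5.58, outside the range of the other kidneys, while in liver Phlda1 is the highest at 4.66 and Ier5l the lowest at 0.301.

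Genes that feed back on the kinase cascade upstream of these factors gave smaller ratios. Of 12 tested, 6 were highest in the kidney labelled wild-type 24, against 7.93% of genes, with ratios of 0.717 to 1.68. Of these 12, 0 passed the 2-fold ratio, against 0.886% of genes, so this count is near the share. In the liver labelled wild-type 24, 2 of 12 were highest, against 14.5% of genes. There 0 passed the ratio, against 2.35%, with ratios of 0.372 to 1.95, so both liver counts are near the shares. For KO against WT, 0 of 12 passed in either tissue by edgeR. In kidney 5 lay higher and 7 lower, or 6 and 6 without mouse 24, and the smallest p belonged to Spry1 at a log2 fold change of -0.30, Errfi1 at 0.22 and Spry4 at -0.27 (edgeR adjusted p = 0.9995 for each). Spry1 and Spry4 are Sprouty inhibitors of growth factor signalling, and Errfi1 inhibits the EGF receptor. In liver 7 lay higher and 5 lower, or 10 and 2 without mouse 24, with Dusp10 at -0.60, Errfi1 at 0.47 and Dusp4 at 0.43 (edgeR adjusted p = 0.9998 for each).

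Of the kinases and factors that switch immediate early genes on, 0 passed the 2-fold ratio in that kidney. Over all genes 0.886% passed it, so a count of 0 is near the share. Of 12 kinases of the cascade 3 were highest there, against 7.93% of genes, with ratios of 0.888 to 1.199. Of 11 factors around serum response factor and CREB 2 were highest, with ratios of 0.916 to 1.45, and of 8 constitutive or late partners of Fos and Jun 0 were. In liver 3 of 12 kinases, 2 of 11 factors and 2 of 8 partners were highest in the liver labelled wild-type 24, against 14.5% of genes. There 0 of each passed the 2-fold ratio, against 2.35% of genes. For KO against WT, 0 genes of these 3 lists passed in either tissue by edgeR.

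Acute stress genes were also high in mouse 24. Of 6 inducible heat shock genes, 4 were highest in the kidney labelled wild-type 24, against 7.93% of genes, and 3 passed the 2-fold ratio, against 0.886%. The chaperone Hspa1b stood at 32.3 to 108 CPM in KO kidneys, at 24.2 to 29.9 CPM in WT kidneys 19 to 23 and at 139.9 CPM in that kidney. In liver 3 of 6 were highest in its library, against 14.5% of genes, and 4 passed the ratio, against 2.35%. Of the early inflammatory genes, 5 of 9 in liver and 4 of 8 in kidney were highest in the library of that mouse, and 7 of 9 in liver and 3 of 8 in kidney passed the ratio, beside the same shares of all genes. The chemokine Cxcl1 reached 88.0 CPM in the liver labelled wild-type 24 against 3.37 to 69.8 CPM in the other livers, a ratio of 8.55, and 2.76 CPM in its kidney against 0.302 to 1.09 CPM in the others. Hspa1b and Cxcl1 were named after their values were seen. For KO against WT, 0 of these genes passed by edgeR, with all libraries and without mouse 24.

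Of 6 acute glucocorticoid targets, 0 were highest in the kidney labelled wild-type 24, against 7.93% of genes. In its liver 0 were highest, against 14.5% of genes, so both counts are near these shares. Their ratios to the median of the other libraries were 0.618 to 1.375 in kidney and 0.316 to 0.894 in liver. For KO against WT, 6 of 6 lay higher in kidney with a median log2 fold change of 0.47, and 6 of 6 in liver with 0.82, against 0.01 and 0.00 over all genes, and 0 of 6 passed in either tissue by edgeR. Without mouse 24 the medians were 0.63 and 0.78. These stand beside the value of Dusp1 without mouse 24, and their part in it was not tested.

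Marker sums of other cell types are given beside these results. In the kidney labelled wild-type 24 endothelial markers summed to 345.5 CPM against 344 to 388 CPM in the other kidneys, macrophage markers to 112 CPM against 107 to 142 CPM, and lymphocyte markers to 6.76 CPM, also within the range of the other kidneys. Neutrophil markers summed to 3.40 to 5.87 CPM in KO kidneys and to 3.48 to 28.4 CPM in the other WT kidneys, and to 8.14 CPM in the kidney labelled wild-type 24. Erythroid markers summed to 1786 CPM in it, above the 898.5 to 1700 CPM of the other kidneys, and kidney tubule markers to 13780 CPM, above 10800 to 13310 CPM. Singly, 3 of 5 erythroid markers were highest in that kidney, but only 1 of 7 tubule markers, Umod at 3333 CPM. Adrenal markers reached 174 CPM in 1 KO kidney and at most 6.58 CPM in WT kidneys, and muscle markers reached 13.1 CPM in KO livers and at most 2.40 CPM in WT livers. The part of these cells in the levels of the 10 genes was not tested.

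By correlation with the mean deviation of the 10 genes over 10 kidneys, the most alike of 14537 genes averaging at least 1 CPM were Zfp36 at an r of 0.975, Anxa6 at 0.970, Arc at 0.965, Nol4l at 0.954, Ccn1 at 0.944 and Apold1 at 0.939. Zfp36, which encodes a protein that speeds decay of AU-rich messages, stood at 109.9 CPM in the kidney labelled wild-type 24 and at 35.4 to 51.3 CPM in the others, and Arc, an activity-induced gene of neurons, at 9.93 CPM against 2.54 to 3.65 CPM. Without that kidney the 6 most alike were Snx20, Hmcn2, Dnd1, Gm9951, Ppp2r2b and Adam11, with r of 0.901 to 0.938. No gene was in both lists of 6. Over 9 livers they were Zfp317, Slc18b1, Srr, Myo1f, Rsph3b and Kifc3, with r of 0.963 to 0.986 among 12215 genes. These lists describe likeness in few libraries that share 1 extreme member.

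Some counts may hold reads of neighbours. Jun overlaps Junos, Junb overlaps Prdx2 and Dusp1 overlaps Ergic1, each on the opposite strand, and whether reads were counted by strand is not given in the sources used here. Prdx2 stood at 230.0 CPM in the kidney labelled wild-type 24 and at 184 to 262 CPM in the others, Ergic1 at 91.3 CPM against 89.8 to 99.2 CPM, and Junos at 0.598 CPM against 0.453 to 0.938 CPM. All 3 partners lay within the range of the other kidneys in that library.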

How the data were processed

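The authors deposited raw, unnormalized counts of 26506 genes in 19 libraries; per the submitters' processing notes, Trim Galore, STAR, featureCounts and DESeq2 were used with GRCm38. Identifiers were matched to GENCODE mouse release M21, and 89 of them had no match. Each tissue was fitted with edgeR 4.0.16 in R 4.3.3 (quasi-likelihood, robust, TMM, filterByExpr minimum 10), two-sided, with Benjamini-Hochberg adjustment over all genes and a threshold of 0.05. Tissue and interaction contrasts came from 1 fit of all libraries. CPM are TMM-scaled, and correlations used log2 CPM with a prior count of 2. Promoters are RefSeq's. Alternatives were DESeq2 1.42.0, limma 3.58.1 voom, other scalings and filters, a block for mouse number, and fits without single mice. Each fit was checked on simulated counts in which 200 genes had been changed.

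The members, lists and tests were chosen with earlier results of these data known. The text names all 10 members, list genes past the threshold, the 3 smallest p of the other early and feedback lists per tissue, and the 6 genes most alike. Precision is limited by the 4 or 5 libraries per group: the median standard error over all genes was 0.13 in kidney and 0.17 in liver (log2).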

Additional observations from a re-analysis of the deposited data

Results flagged for a closer look

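In 40 sets of 4 or 5 libraries (10 genes in 4 groups), 19 had a library that stood apart from its group. The measure was the gap to its nearest neighbour relative to the group's range, which chance passes in about 1 in 20 independent sets. These sets share libraries and the genes respond to shared stimuli, so they are not independent and the count is not a test. Of the 19, 13 were libraries labelled wild-type 24. In its kidney all 10 genes stood apart from the other WT kidneys by this measure, with Fos at 43.4 CPM, Fosb at 8.851 CPM, Jun at 177.6 CPM, Junb at 68.9 CPM, Egr1 at 178.0 CPM, Atf3 at 6.76 CPM, Ier2 at 40.89 CPM, Nr4a1 at 61.21 CPM, Dusp1 at 203.1 CPM and Btg2 at 57.74 CPM. In its liver 3 genes stood apart by this measure, with Fos at 16.83 CPM, Jun at 109.8 CPM and Dusp1 at 120.1 CPM. Fosb, Atf3, Nr4a1 and Btg2 of that liver were also above the other WT livers, without standing apart by this measure. H2afy of this mouse lay between the KO libraries and the other WT libraries in both tissues, nearer to the KO libraries.

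The other 6 were KO libraries. KO kidney 14 stood above its group for Fos at 5.865 CPM, Egr1 at 28.25 CPM and Nr4a1 at 19.35 CPM, and KO liver 14, which carries the same number, for Nr4a1 at 36.19 CPM. KO kidney 18 stood above its group for Fosb at 1.027 CPM, which was 34 counts. KO kidney 15 stood below its group for Dusp1 at 31.99 CPM.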

How the results depend on the processing

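No alternative made any of the 10 genes pass for KO against WT or for the difference between tissues, so the limits concern direction. In kidney DESeq2 gave no adjusted p for Fos, Fosb, Jun, Egr1, Nr4a1 and Dusp1 and could not call them. With 1 kidney left out, the log2 fold change ranged from -2.85 to 0.18 for Fos, -0.77 to 0.47 for Jun, -0.53 to 0.00113 for Junb, -2.17 to 0.00337 for Egr1, -0.39 to 0.44 for Atf3, -1.46 to 0.89 for Nr4a1, -0.47 to 0.69 for Dusp1 and -0.31 to 0.24 for Btg2, each highest value being without 24. Leaving out mice 16 and 24 gave 0.27, 0.44, 0.0135, 0.0238, 0.52, 0.996, 0.64 and 0.22 for these genes. With limma voom, Jun was at 0.10, Atf3 at 0.21, Nr4a1 at 0.36, Dusp1 at 0.16 and Btg2 at 0.0727. With 1 liver left out, the range was -1.65 to 0.55 for Fos, -1.37 to 0.21 for Fosb, -0.65 to 0.38 for Jun, -0.29 to 0.0192 for Ier2, -0.54 to 0.66 for Dusp1, -0.57 to 0.94 for Nr4a1, -0.81 to 0.40 for Egr1 and -0.39 to 0.34 for Btg2. Without mice 16 and 24 values across 0 were 0.81 for Fos, 0.39 for Fosb, 0.44 for Jun, -0.18 for Egr1 and 0.79 for Dusp1. With voom they were 0.33 for Fosb, 0.16 for Jun, -0.94 for Egr1, 0.21 for Dusp1 and -0.0330 for Btg2. The difference between tissues turned below 0 without mouse 24 for Jun (-0.0894), Junb (-0.21), Ier2 (-0.0202) and Dusp1 (-0.0301), and for Btg2 its lowest value over the alternatives was -0.11. It also reversed for Egr1 (-0.38 with voom, -0.22 without mice 16 and 24, and -0.15 to 2.39 with 1 mouse left out) and Nr4a1 (-0.23 with voom).

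Genes called over the whole table moved more. In kidney there were 1 with edgeR, 15 with DESeq2, 4 with voom, 4 with no filter, 3 in 1 fit of all libraries, 12 without mice 16 and 24, and 1 to 10 with 1 library left out. In liver there were 0, 42, 5, 3, 21 and 11 in the same order, and 0 to 7 with 1 library left out. The difference had 0 with edgeR, 11 with DESeq2, 4 without mice 16 and 24 and 0 to 3 with 1 mouse left out. The cause was not tested.

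For liver against kidney, 4 of the 10 passed, against 2 with library totals, 9 without mice 16 and 24 and 3 to 8 with 1 mouse left out. Over all genes, 6592 of 18549 were called higher in the main fit and 2662 of 18549 with library totals. Without mice 16 and 24 it was 6412 of 18825, and with 1 mouse left out 6460 to 6620 genes were called higher. With library totals the log2 fold change was -0.29 for Fos, -0.15 for Jun, -0.22 for Atf3, -0.26 for Nr4a1, -0.43 for Dusp1 and -0.22 for Btg2, and Egr1 no longer passed (adjusted p = 0.108). Fosb turned to 0.21 with voom, 0.15 without mice 16 and 24 and -0.62 to 0.0860 with 1 mouse left out. In kidney 4 relations with Fos passed, 2 without mice 16 and 24 and 2 to 7 with 1 mouse left out. In liver 0 to 4 did, and r of Egr1 ranged from -0.42 to 0.31.

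Whether equal mouse numbers pair the kidney and liver libraries was checked by the correlation of their deviations, which lay between 0.05 and 0.31 over 9 pairs. It exceeded 0.1 in 7 pairs, and 4 pairs correlated best with their own number. Pairing in the main fits required every pair to exceed 0.1, so equal numbers were not used there, although most of them correlated. These values do not show that equal numbers are unpaired. With the replicate block, 6 of 10 genes passed for liver against kidney by edgeR, Jun and Dusp1 in addition (adjusted p = 0.00121 and 0.0138). Over all genes 6623 of 18549 were then called higher and 8438 lower. For the difference 0 of 10 passed, and 0 of 18549 genes were called. Low counts limit Fosb, at 4 to 34 reads in most libraries.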

Other observations

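Without mouse 24, Ccn2, a matrix-associated growth factor of the wider early gene list, had a log2 fold change of 1.66 in liver (edgeR adjusted p = 0.216). It stood at 5.50 to 14.4 CPM in KO livers and at 2.60 to 3.33 CPM in the other 3 WT livers, and the liver labelled wild-type 24 held 7.43 CPM. Every KO liver lay above every WT liver but 24 for 1.86% of the genes tested in liver.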
